A study of Mus musculus with 6 samples.

Results

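The 10 genes described here are L1cam, Nrcam, Nfasc and Chl1 (the L1 family), Ncam1 and Alcam, the contactins Cntn1 and Cntn2, and the ankyrins Ank2 and Ank3. They were chosen by name as cell adhesion molecules of axons and the adaptors that hold such molecules in place, and are 10 of the 17027 gene symbols listed. All 10 were found, with 107 of the 50829 listed isoforms, and all 10 passed the filter on low values (a mean of at least 1 FPKM over the 6 libraries), as did 83 of their isoforms. FPKM counts sequenced fragments by transcript length and library size. The level of a gene is the sum of its isoforms.

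The cells were retinal ganglion cells (RGCs), the neurons whose axons form the optic nerve, from mice of genotype WT and strain C57/6NCrl. There were 2 libraries each from embryos at day 18 (E18), pups 5 days after birth (P5) and mice of 8 weeks (Adult). No treatment is named for any group. Per the labels, cells were captured by panning on Thy1 after macrophages had been removed, and the sample labels add removal of amacrine cells. The study set these ages side by side in work on axon regeneration. The labels do not say whether the 2 libraries of an age are from different animals or pools, so each p-value rests on a spread among these samples that may be technical. Both P5 libraries carry one header and are called P5 a and P5 b.

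The L1 family and their relatives are membrane proteins with immunoglobulin domains that bind to each other and to partners on neighbouring cells. L1cam, Nrcam, Chl1, Ncam1 and Alcam are known for roles in the growth, bundling and guidance of axons, retinal axons among them. Contactins lack a cytoplasmic part and sit in the membrane by a lipid (GPI) anchor, often beside an L1 family protein. Ankyrins link the cytoplasmic tails of the L1 family, and ion channels, to the spectrin skeleton under the membrane. Ank3 (ankyrin-G) organises the axon initial segment and the nodes of Ranvier, where Nfasc and Nrcam gather, and Ank2 (ankyrin-B) lies along the axon.

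The Adult libraries stood apart from the others. Pearson's r of log2(FPKM + 1) over 14390 genes, which share each library's depth and makeup, was 0.719 to 0.763 between Adult and younger libraries, against 0.941 to 0.964 between P5 and E18. RGC markers were present at every age, with 15 of 15 at 1 FPKM or more in every library, but their sum was 563 and 378 FPKM in Adult replicates 1 and 2, against 4622 to 5295 FPKM in the younger libraries. Of these 15 markers, 14 were lower and 0 higher in Adult than at P5 (median log2 change -3.68). Markers of several other retinal cells were higher in Adult. Cone markers Opn1mw and Pde6c and bipolar markers Grm6 and Vsx1 were at 0 in both P5 libraries. The 10 rod markers summed to 5364 and 636 FPKM in Adult replicates 1 and 2, against 1.41 to 2.67 FPKM in the younger libraries, and Cnga1 was at 0 in both E18 libraries. All 10 were called higher in Adult than at P5, as were 7 of 7 cone, 7 of 7 tested bipolar, 8 of 8 tested amacrine and 5 of 6 tested Müller glia markers. Of 3 tested horizontal cell markers, 2 were higher and 1 lower, and of 6 tested progenitor markers 0 were called higher or lower by limma. Of 3 tested oligodendrocyte markers, 0 were higher and 2 lower. The progenitor markers differed between the 2 E18 libraries, with a sum of 109 FPKM in E18 replicate 1 and 8.16 FPKM in E18 replicate 2. They summed to 6.14 and 8.03 FPKM in P5 libraries and to 17.0 and 17.5 FPKM in Adult libraries. The part of this in the comparisons with E18 was not tested. Amacrine markers summed to 1447 and 1908 FPKM in Adult and to 349 to 433 FPKM in the younger libraries, and Müller glia markers to 1321 and 1581 FPKM in Adult and to 172 to 229 FPKM in the younger libraries. Protein-coding genes took 36.8% and 32.5% of summed FPKM in Adult, against 68.7% to 73.6% in the younger libraries. Summed FPKM gives short transcripts more weight than their share of fragments. With FPKM multiplied by transcript length, protein-coding genes took 81.0% and 77.6% in Adult, against 91.7% to 92.1% in the younger libraries. The part of these differences in the Adult results below was not tested, and fewer RGCs cannot be told apart from less RNA per RGC.

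**Figure D1:**
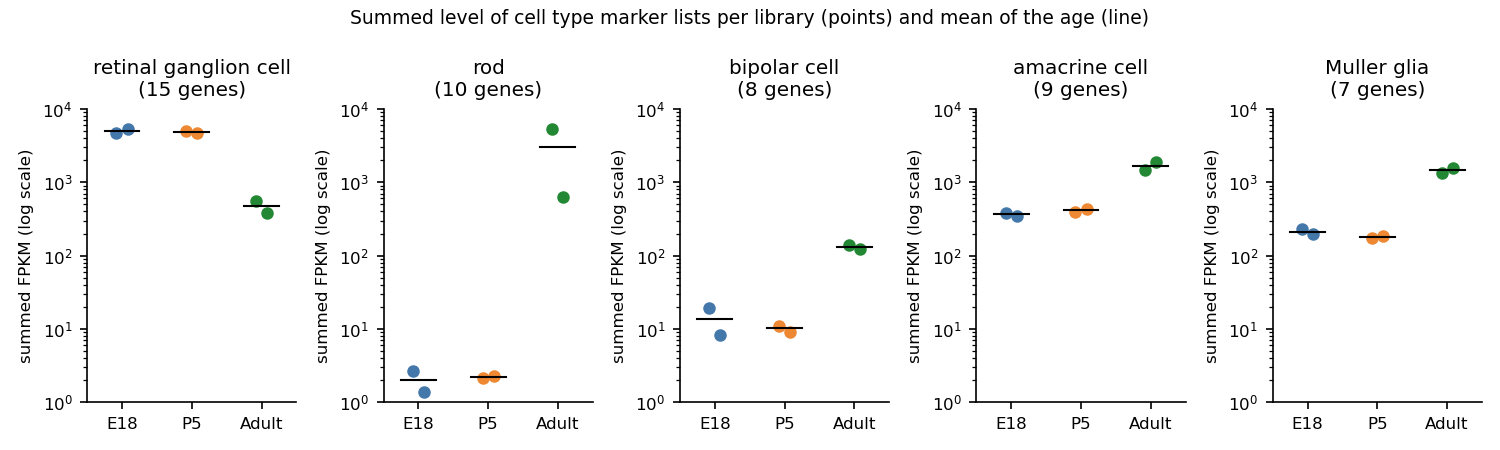
Summed FPKM of 5 marker lists (vertical axis, log scale) by age; points are libraries and lines are age means. RGC markers lie at 378 to 563 FPKM in Adult, below all younger libraries, while rod, bipolar, amacrine and Müller glia sums lie above them.

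Few members passed the test between E18 and P5, and in Adult most members were lower in FPKM than at P5. limma called 1 of the 10 members higher (Cntn1) and 1 lower (Ank3) in P5 against E18 at an adjusted p under 0.05, where 10.5% of all 14390 genes tested were called, 5.52% higher and 4.95% lower. Their median log2 change was -0.11, against -0.03 over all genes. In Adult against P5, 1 member was higher (Ank3), 8 were lower and 1, Nfasc, was not called. That comparison called 59.8% of all genes, 26.2% higher and 33.7% lower, so calls were common in it. The median of the members was -0.97 and that of all genes -0.07. In Adult against E18, 0 were higher and 5 were lower, where 59.7% of all genes were called, 25.3% higher and 34.4% lower. At an unadjusted p under 0.05 the count of higher members was still 0. That count depended on the scaling, since Ank3 was called higher with equal protein-coding sums (0.49, adjusted p = 0.00754) and with quantile normalization (0.46, 0.00548), while as TPM it was called lower (-0.49, 0.00363) and 9 members were lower. The medians were -0.75 for the members and -0.11 for all genes. Each member was also set against the median RGC marker of its library, in log2(FPKM + 1), without a test. On that scale 9 members were higher and 1 lower in Adult than at P5 (median 2.44). Against E18, 10 were higher in Adult (median 2.77). The RGC markers were themselves lower in Adult, and whether the members changed within RGCs was not tested.

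The authors' scaling of the libraries is not given in the sources used here, so other scalings were tried. With values rescaled to TPM the median of all genes was -0.76 in Adult against P5 and -0.68 in Adult against E18, and with equal sums over protein-coding genes it was 0.21 in both. In Adult against P5, 8 of the 10 members lay below the median of all genes as deposited, as TPM and with equal protein-coding sums. With quantile normalization 7 did. In Adult against E18, 8 lay below that median as deposited and as TPM, 7 with equal protein-coding sums and 6 with quantile normalization. Leaving out Adult replicate 1, which had the higher rod sum, left 8 members called in Adult against P5 and 5 in Adult against E18.

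**Figure D2:**
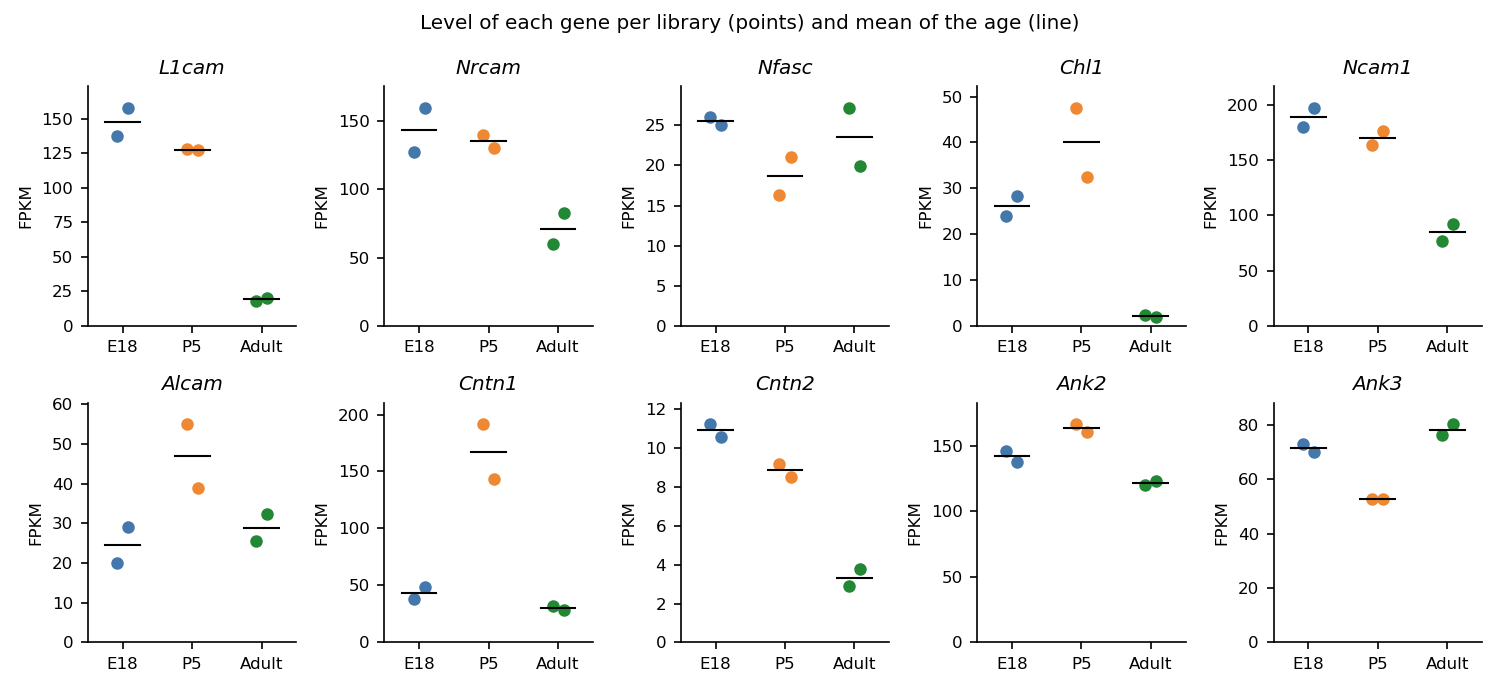
FPKM (vertical axis) of each of the 10 genes at E18, P5 and Adult; points are libraries and lines are age means. Cntn1 peaks at P5 at 144 and 191 FPKM, L1cam and Chl1 are lowest in Adult, and the age means of Ank2 lie between 122 and 163 FPKM.

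**Figure D3:**
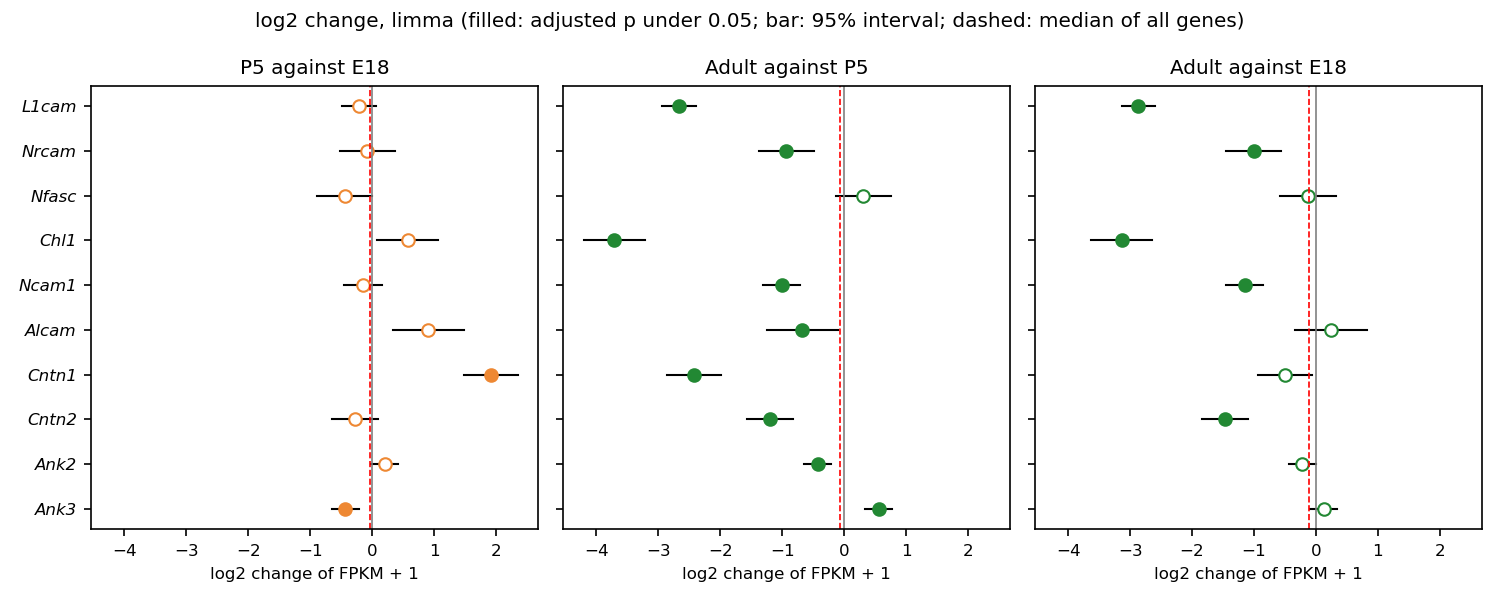
The log2 change of FPKM + 1 (horizontal axis) of each gene in each of the 3 comparisons, with its 95% interval; filled points passed an adjusted p under 0.05 and the dashed line is the median of all genes. In Adult against P5, 8 genes lie below 0 and are filled, and Ank3 lies above 0 and is filled, a direction that is -0.18 as TPM.

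L1cam, founder of the L1 family and a promoter of axon growth, had 138 and 158 FPKM in E18 libraries, 128 and 128 FPKM in P5 libraries and 18.3 and 20.5 FPKM in Adult libraries. Both Adult libraries were far below all 4 younger ones. L1cam averaged 19.4 ± 1.60 FPKM in Adult and 128 ± 0.309 FPKM at P5 (SD, n = 2 each), 6.59-fold lower, and the log2 change was -2.66 (SE 0.11, limma adjusted p = 3.05e-05). Against the E18 mean of 148 ± 14.4 FPKM, Adult was lower by a log2 change of -2.87 (SE 0.11, limma adjusted p = 1.95e-05). P5 against E18 gave -0.21 (adjusted p = 0.278), within the fit's error. L1cam (ENSMUSG00000031391.18, 7 isoforms listed) lies at chrX:73853778-73896105, minus strand, in GRCm38.

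Chl1, the close homolog of L1, showed the steepest fall in Adult of the 10 genes. It had 24.0 and 28.4 FPKM in E18 libraries, 47.5 and 32.6 FPKM in P5 libraries and 2.32 and 1.87 FPKM in Adult libraries. The 3 ages did not overlap, and both P5 libraries were the highest. The change was -3.71 in Adult against P5 (SE 0.20, limma adjusted p = 6.29e-05) and -3.14 in Adult against E18 (SE 0.20, adjusted p = 7.37e-05), or 19.1-fold and 12.5-fold lower as ratios of means. The higher P5 level did not pass the test against E18 (0.57, adjusted p = 0.126). Chl1 (ENSMUSG00000030077.11, 7 isoforms listed) lies at chr6:103510586-103750211, plus strand, in GRCm38.

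Nrcam, which gathers at initial segments and nodes and also guides axons, was lower in Adult by a smaller factor. Its level was 127 and 159.6 FPKM in E18 libraries, 139.7 and 131 FPKM in P5 libraries and 59.9 and 82.7 FPKM in Adult libraries. The P5 values lay inside the E18 range, and both Adult values lay below the rest. The log2 change was -0.93 in Adult against P5 (SE 0.18, limma adjusted p = 0.00545) and -1.01 in Adult against E18 (SE 0.18, adjusted p = 0.00377). Summed over its protein-coding isoforms alone, Nrcam was also lower at P5 than at E18 (-0.58, adjusted p = 0.0397), which the whole sum did not show (-0.08, adjusted p = 0.826). Nrcam (ENSMUSG00000020598.16, 18 isoforms listed) lies at chr12:44328885-44601964, plus strand, in GRCm38.

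Nfasc, neurofascin, which also gathers at the initial segment and node, had no call in any of the 3 comparisons on the values as deposited. It had 26.0 and 25.1 FPKM in E18 libraries, 16.3 and 21.0 FPKM in P5 libraries and 27.2 and 19.9 FPKM in Adult libraries. The Adult range overlapped those of both younger ages, while both P5 values lay below both E18 values. The log2 change was 0.31 in Adult against P5 (adjusted p = 0.187, 95% interval -0.13 to 0.76) and -0.13 in Adult against E18 (adjusted p = 0.570, -0.58 to 0.32). Sign and call of both depended on the processing. In Adult against P5 Nfasc was -0.41 as TPM (0.123), and was called higher with equal protein-coding sums (0.63, 0.0240) and with annotated isoforms alone (0.53, 0.0234). Its change in Adult against E18 was 0.23 with equal protein-coding sums (0.311), and it was called lower as TPM (-0.73, 0.0195). Nfasc (ENSMUSG00000026442.14, 7 isoforms listed) lies at chr1:132564690-132741797, minus strand, in GRCm38.

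The 4 L1 family genes share a short motif in the cytoplasmic tail through which the family binds ankyrins, the other proteins described here. The motif was found by translating 1 annotated coding sequence per gene (GENCODE M21, GRCm38), and each held 1 match, in 1 exon. It lies at chrX:73855122-73855136 (minus strand) in L1cam, chr12:44598486-44598500 (plus) in Nrcam, chr1:132570507-132570521 (minus) in Nfasc and chr6:103729249-103729263 (plus) in Chl1. Each line gives 45 bases of coding sequence, 5′ to 3′, with the 15 bases of the motif in capitals.
L1cam: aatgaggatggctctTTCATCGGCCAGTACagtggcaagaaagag
Nrcam: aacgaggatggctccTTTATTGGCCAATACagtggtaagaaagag
Nfasc: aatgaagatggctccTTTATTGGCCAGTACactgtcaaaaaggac
Chl1: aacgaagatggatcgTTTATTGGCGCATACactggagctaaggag
Over the 45 bases L1cam and Nrcam differed at 6 and Nrcam and Nfasc at 9, while Chl1 differed from the others at 11 to 15. Within the motif, the bases of L1cam, Nrcam and Nfasc encode the same residues, and those of Chl1 do not.

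Ncam1, the neural cell adhesion molecule, had the highest level of the 10 genes at E18 and at P5. It had 179.7 and 197 FPKM in E18 libraries, 164 and 176 FPKM in P5 libraries and 76.4 and 92.5 FPKM in Adult libraries. Both Adult libraries were below all younger ones. The log2 change was -1.01 in Adult against P5 (SE 0.12, limma adjusted p = 0.000831) and -1.15 in Adult against E18 (SE 0.12, adjusted p = 0.000444). P5 against E18 gave -0.15 (adjusted p = 0.473). Ncam1 (ENSMUSG00000039542.16, 6 isoforms listed) lies at chr9:49502136-49798925, minus strand, in GRCm38.

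Alcam, which retinal axons use for bundling, was highest at P5. Its level was 20.1 and 29.1 FPKM in E18 libraries, 55.0 and 39.0 FPKM in P5 libraries and 25.6 and 32.2 FPKM in Adult libraries. Both P5 values lay above the other 4, and Adult and E18 overlapped. The call in Adult against P5 was close to the threshold (-0.67, SE 0.24, limma adjusted p = 0.0490). It was lost without P5 a (adjusted p = 0.244), without Adult replicate 1 (0.237) or without Adult replicate 2 (0.0883), and with equal protein-coding sums (-0.35, 0.228). P5 against E18 gave 0.91 (SE 0.24, adjusted p = 0.0620) and was called as TPM (1.06, 0.0287). Alcam (ENSMUSG00000022636.13, 7 isoforms listed) lies at chr16:52248996-52454074, minus strand, in GRCm38.

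Cntn1, a GPI-anchored partner of L1 family proteins, was the member that changed most between E18 and P5. Its level was 38.3 and 48.5 FPKM in E18 libraries, 191 and 144 FPKM in P5 libraries and 31.9 and 28.6 FPKM in Adult libraries. Both P5 libraries stood well above all others, and Adult and E18 did not overlap. It was 3.86-fold higher at P5 (168 ± 33.8 FPKM) than at E18 (43.4 ± 7.25 FPKM, SD, n = 2 each), a log2 change of 1.92 (limma adjusted p = 0.00751, SE 0.18, 95% interval 1.49 to 2.35). It was 1.71 to 2.13 in the fits that left out a library, but the call was lost without E18 replicate 1 (1.75, adjusted p = 0.0807) or P5 a (1.71, 0.0665). It was 5.54-fold lower in Adult than at P5 (-2.42, SE 0.18, limma adjusted p = 0.000142). Adult against E18 gave -0.50 (95% interval -0.93 to -0.07, adjusted p = 0.0504) and was called under several alternatives, among them TPM (-1.11, 0.00138). Cntn1 (ENSMUSG00000055022.14, 4 isoforms listed) lies at chr15:92051165-92341967, plus strand, in GRCm38.

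Cntn2, known as TAG-1, a contactin of early growing axons and later of the region beside the node, had the lowest level of the 10 genes at E18 and P5. It had 11.2 and 10.6 FPKM in E18 libraries, 9.18 and 8.52 FPKM in P5 libraries and 2.88 and 3.78 FPKM in Adult libraries. The ages did not overlap. It was lower in Adult than at P5 (log2 change -1.19, SE 0.15, limma adjusted p = 0.000939) and than at E18 (-1.47, SE 0.15, adjusted p = 0.000376). P5 against E18 gave -0.27 (adjusted p = 0.281). Cntn2 (ENSMUSG00000053024.14, 2 isoforms listed) lies at chr1:132509427-132543256, minus strand, in GRCm38.

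Ank2, ankyrin-B, had 146 and 138 FPKM in E18 libraries, 166 and 161 FPKM in P5 libraries and 120.2 and 123 FPKM in Adult libraries, and it was the most abundant of the 10 genes in Adult. Both P5 values were the highest and both Adult values the lowest. The log2 change in Adult against P5 was -0.42 (SE 0.09, limma adjusted p = 0.00732), and it was not called with equal protein-coding sums (-0.10, 0.439) or quantile normalization (-0.04, 0.747), while as TPM it was -1.17 (7.70e-05). P5 against E18 gave 0.20 (adjusted p = 0.192) and Adult against E18 gave -0.22 (adjusted p = 0.0737). Against E18, Ank2 was called lower in Adult as TPM (-0.84, 0.000331), with annotated isoforms alone (-0.33, 0.0201) and with isoforms of at least 2000 bases (-0.32, 0.0261). Ank2 (ENSMUSG00000032826.17, 24 isoforms listed) lies at chr3:126921612-127499350, minus strand, in GRCm38.

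Ank3 was lowest at P5. It had 73.0 and 70.1 FPKM in E18 libraries, 52.9 and 52.6 FPKM in P5 libraries and 76.3 and 80.3 FPKM in Adult libraries. The P5 values lay below all others, with a gap far wider than the spread within any age. Ank3 was 1.48-fold higher in Adult than at P5 (0.56, SE 0.09, limma adjusted p = 0.00250), but as TPM its change was -0.18 (0.121). Its log2 change minus the median of all genes was above 0 under each scaling, 0.63 as deposited, 0.57 as TPM, 0.68 with equal protein-coding sums and 0.95 with quantile normalization. Not all Ank3 transcripts were higher in Adult. Those sharing the start site of ENSMUST00000182155.7 averaged 19.6 FPKM at P5 and 16.2 FPKM in Adult. Transcripts under 2000 bases held 33.3% and 38.6% of Ank3 at P5 and 43.2% and 43.4% in Adult. At P5 Ank3 was lower than at E18 (log2 change -0.43, limma adjusted p = 0.0358, SE 0.09, 95% interval -0.65 to -0.21). This call was lost with any 1 library left out (adjusted p 0.0577 to 0.248) and as TPM (0.0833). Ank3 (ENSMUSG00000069601.14, 25 isoforms listed) lies at chr10:69398773-70027438, plus strand, in GRCm38.

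Set against each other, the 10 genes changed order between ages. At E18 the order of mean levels was Ncam1, L1cam, Nrcam, Ank2, Ank3, Cntn1, Chl1, Nfasc, Alcam and Cntn2. The ranges of L1cam, Nrcam and Ank2 (127 to 159.6 FPKM) overlapped, as did those of Chl1, Nfasc and Alcam. At P5 Cntn1 stood second, with libraries that overlapped those of Ncam1 and Ank2. In Adult the order was Ank2, Ncam1, Ank3, Nrcam, Cntn1, Alcam, Nfasc, L1cam, Cntn2 and Chl1. There Ncam1, Ank3 and Nrcam overlapped, and Alcam overlapped both Cntn1 and Nfasc, and Nfasc overlapped L1cam.

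The summed level of the 10 genes was 783 and 865 FPKM in E18 libraries, 970.3 and 892 FPKM in P5 libraries and 441 and 486 FPKM in Adult libraries. Shares of this sum do not change when a whole library is multiplied by 1 factor, as in TPM or equal protein-coding sums. L1cam held 17.9 ± 0.496% at E18, 13.7 ± 0.784% at P5 and 4.19 ± 0.0585% in Adult (SD, n = 2 each). Cntn1 held 5.25 ± 0.512%, 17.9 ± 2.57% and 6.56 ± 0.947% at these ages. The share of L1cam was lowest in Adult and that of Cntn1 highest at P5, with no overlap of libraries. The ankyrins had their highest shares in Adult, where Ank2 held 26.3 ± 1.32% and Ank3 16.9 ± 0.546%, against 17.6 ± 0.612% and 5.68 ± 0.315% at P5 and 17.3 ± 1.90% and 8.71 ± 0.863% at E18.

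**Figure D4:**
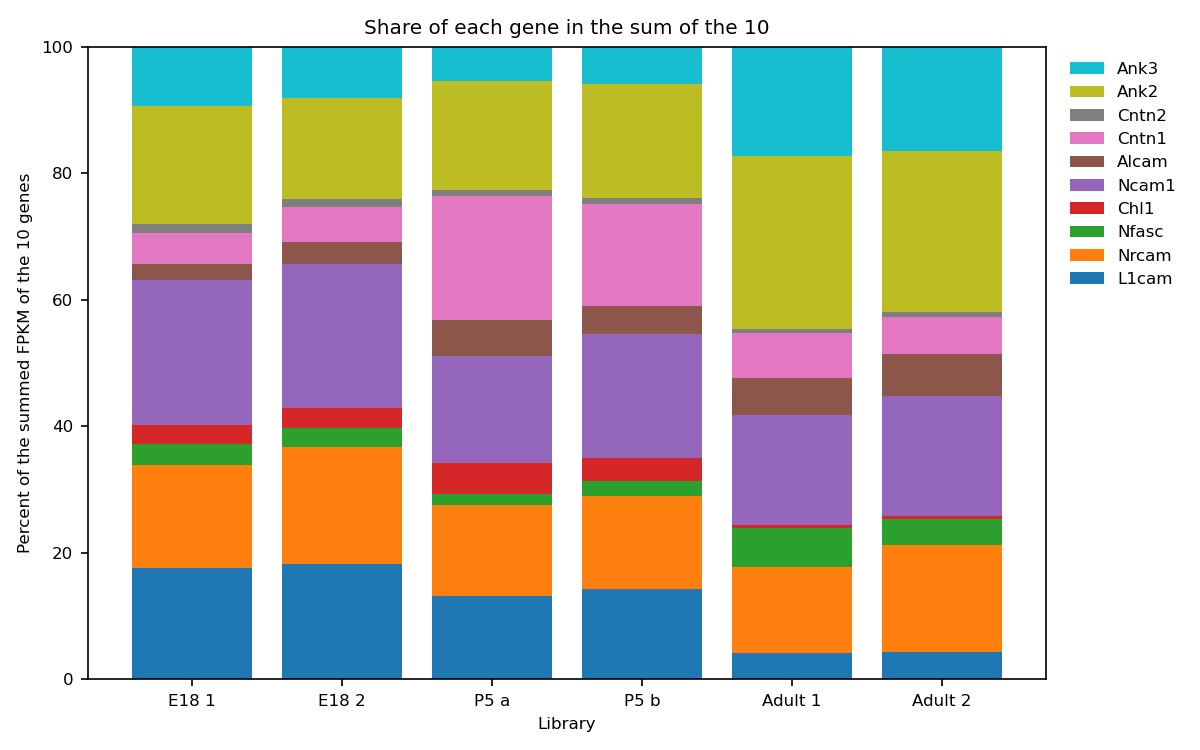
Percent of the summed FPKM of the 10 genes (vertical axis) held by each gene in each of the 6 libraries, as stacked bars. L1cam narrows to about 4.19% in Adult, Cntn1 widens at P5, and Ank2 and Ank3 are widest in Adult.

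Isoforms showed where single transcripts moved apart from their genes. Of the 83 tested, limma called 16 higher and 30 lower in Adult against P5, where 43.3% of all 34941 isoforms tested were called, 19.2% higher and 24.1% lower. In Adult against E18 it called 13 higher and 30 lower, where 44.7% were called, 17.9% higher and 26.8% lower. It called 1 higher (a Cntn1 isoform) and 1 lower in P5 against E18, where 1.63% of all isoforms were called, 0.804% higher and 0.824% lower, and both calls were lost with any 1 library left out. The lower one, chosen for mention after its values were seen, was the Ank2 isoform ENSMUST00000182610.7, at 0 in both P5 libraries, against 3.39 and 2.79 FPKM at E18. A further fit tested each isoform relative to its gene, as the difference of their log2(FPKM + 1). It called 23 higher and 8 lower of 83 in Adult against P5, where 29.3% of all 28363 isoforms tested were called, 15.6% higher and 13.7% lower. Against E18 it called 22 higher and 9 lower in Adult, where 25.6% were called, 12.6% higher and 13% lower. Between P5 and E18 limma called 0 of 83, with 8 higher and 8 lower at an unadjusted p under 0.05, and 0 of all 28363, which is 0%. The pseudocount of 1 FPKM distorts this relative scale for genes or isoforms near 0, such as Chl1 and some short isoforms of L1cam in Adult. Of these calls, 20 of 31 in Adult against P5 and 17 of 31 in Adult against E18 held at a pseudocount of 0.1 FPKM with a share of the gene that moved the same way without overlap.

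Some Ncam1 isoforms with different ends changed in opposite directions. The isoform ENSMUST00000114476.7, of 2567 bases, encodes a protein of 725 residues and ends in the exon of the GPI-anchored form. It had 0.631 and 0.247 FPKM in E18 libraries, 0.690 and 0.627 FPKM in P5 libraries and 19.6 and 15.8 FPKM in Adult libraries. All 4 younger libraries were below 1 FPKM and both Adult libraries far above. It was higher in Adult than at P5 by 3.49 (SE 0.22, limma adjusted p = 0.000307), although the whole gene was lower. Relative to Ncam1 the change was 4.50 (SE 0.31, adjusted p = 0.00113), and its share was 25.7% and 17.1% in Adult, against 0.421% and 0.356% at P5 and 0.351% and 0.125% at E18.

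The isoform ENSMUST00000193547.5, of 6050 bases, encodes a transmembrane form of 848 residues. It went the other way, with 69.1 and 82.8 FPKM in E18 libraries, 54.5 and 61.3 FPKM in P5 libraries and 3.76 and 6.64 FPKM in Adult libraries. Its share was 4.92% and 7.18% in Adult, against 33.2% and 34.9% at P5, with no overlap. The change in Adult against P5 was -3.29 (SE 0.24, limma adjusted p = 0.000454), and relative to Ncam1 it was -2.28 (SE 0.21, adjusted p = 0.00226). A near copy of this form, ENSMUST00000166811.8 with 849 residues, held 17.7% and 20.3% of Ncam1 in Adult, against 18.4% to 21.7% in the younger libraries. The isoform with the highest Adult level, of 6899 bases and not identical to any annotated transcript, held 43.8% and 46.8% in Adult, against 35.6% to 44.6% in the younger libraries.

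The GPI form and the transmembrane form part at 1 splice junction, which is shown here. Whether all their coding exons before it are the same was not examined. The GPI form continues into its last exon (exon 16 of 16, coding part at chr9:49517509-49517582, minus strand), and the transmembrane form into exon 16 of 18 (first 74 bases at chr9:49509839-49509912, minus strand, GRCm38). Lower case marks the 20 bases before the junction that both share, and capitals mark 74 bases after it.
Ncam1 GPI form: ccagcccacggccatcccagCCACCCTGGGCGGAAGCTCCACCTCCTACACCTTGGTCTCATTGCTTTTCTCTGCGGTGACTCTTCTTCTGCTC
Ncam1 transmembrane form: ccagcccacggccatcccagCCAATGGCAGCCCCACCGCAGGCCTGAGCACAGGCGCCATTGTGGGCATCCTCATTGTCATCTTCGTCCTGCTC
The isoform ENSMUST00000114476.7, which ends in the first of these exons, was near 0 at both younger ages. Whether other listed isoforms end in that exon was not examined.

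The coding sequences of the 2 main L1cam isoforms differ by a small exon of 12 bases in the cytoplasmic tail (exon 28 of 29, chrX:73855652-73855663, minus strand), which neurons are known to include. It is printed in capitals between 30 bases on either side.
L1cam: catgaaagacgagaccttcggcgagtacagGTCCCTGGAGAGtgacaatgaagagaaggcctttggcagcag
The isoform with this exon, ENSMUST00000102871.9 (1259 residues), had 44.4 and 48.6 FPKM in E18 libraries, 42.1 and 40.0 FPKM in P5 libraries and 6.18 and 7.69 FPKM in Adult libraries. The isoform without it, ENSMUST00000114430.7 (1255 residues), had 56.6 and 63.9 FPKM in E18 libraries, 55.9 and 53.6 FPKM in P5 libraries and 8.04 and 7.83 FPKM in Adult libraries. As a percent of this pair, the form with the exon held 44.0 and 43.2 in E18 libraries, 43.0 and 42.7 in P5 libraries and 43.5 and 49.5 in Adult libraries, so 1 Adult library lay within the younger range and 1 above it. All 6 tested isoforms of L1cam and all 4 of Chl1 were lower in Adult than at either younger age.

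Alcam has an exon of 39 bases (exon 13 of 16, chr16:52268790-52268828, minus strand), printed in capitals between 20 bases on either side.
Alcam: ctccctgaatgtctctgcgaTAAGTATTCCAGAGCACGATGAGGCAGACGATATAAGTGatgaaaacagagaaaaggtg
The isoform with this exon, ENSMUST00000023312.13 (583 residues), made up 44.6% and 39.8% of its pair with ENSMUST00000170035.7 (570 residues) in Adult, against 30.2% and 33.2% at P5 and 37.6% and 33.6% at E18. Both Adult libraries were the highest, and the share of either isoform in the gene was not called. A short Alcam isoform of 878 bases with 133 coding residues was higher in Adult (3.27 and 3.76 FPKM) than at P5 (0.938 and 0.996 FPKM), with a relative change of 1.87 (SE 0.28, limma adjusted p = 0.00831).

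In Nrcam, the 4943-base isoform ENSMUST00000220123.1, annotated as a target of nonsense-mediated decay, had 20.7 and 24.5 FPKM in E18 libraries, 31.8 and 31.0 FPKM in P5 libraries and 4.52 and 4.03 FPKM in Adult libraries. Its share was 7.56% and 4.88% in Adult, against 22.8% and 23.8% at P5 and 16.3% and 15.3% at E18, with no overlap between ages. The relative change in Adult against P5 was -1.69 (SE 0.25, limma adjusted p = 0.00756). An isoform of 7210 bases, nearest to the same transcript but not identical to it, went the other way. Its mean share was 6.40% in Adult and 1.72% at P5, and it was called higher relative to Nrcam. In Nfasc, the isoform ENSMUST00000094569.10 (1240 residues) had 15.4 and 16.2 FPKM in E18 libraries, 10.8 and 13.0 FPKM in P5 libraries and 13.1 and 11.0 FPKM in Adult libraries. The Adult and P5 ranges overlapped. An isoform of 6242 bases, not identical to any annotated transcript, was nearest to ENSMUST00000187861.6, which encodes 1347 residues. It held 7.12% and 0.815% of Nfasc in Adult, against 19.8% and 19.0% at P5 and 20.5% and 16.4% at E18. Its lower relative call in Adult against P5 was lost at a pseudocount of 0.1 FPKM (limma adjusted p = 0.0822). Transcripts under 2000 bases, of which Nfasc has 2 listed and neither is coding, made up 28.1% and 36.0% of its level in Adult, against 8.50% and 9.17% at P5 and 7.07% and 8.98% at E18. Without them, with isoforms of at least 2000 bases, Nfasc changed by -0.09 in Adult against P5 (adjusted p = 0.717) and by -0.54 in Adult against E18 (0.0436).

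Cntn1 has 2 main isoforms that begin at different first exons and encode the same protein of 1020 residues, and both were highest at P5. ENSMUST00000169825.7, of 5671 bases, had 26.7 and 35.2 FPKM in E18 libraries, 144 and 108 FPKM in P5 libraries and 26.9 and 26.3 FPKM in Adult libraries. Its change at P5 against E18 was 1.99 (SE 0.19, limma adjusted p = 0.0249). ENSMUST00000068378.5, of 5817 bases, had 6.05 and 10.2 FPKM in E18 libraries, 38.1 and 25.3 FPKM in P5 libraries and 4.15 and 2.29 FPKM in Adult libraries. For both, the P5 libraries were above all others. The share of the first was 84.3% and 92.0% in Adult, against 75.3% and 74.9% at P5 and 69.8% and 72.5% at E18, and its relative change in Adult against E18 was 0.30 (SE 0.06, limma adjusted p = 0.0185). This last call was lost without E18 replicate 1 (0.113) or E18 replicate 2 (0.0891).

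The windows around both start sites are printed because the transcripts from both had their highest libraries at P5. The 5817-base isoform did not pass the test in P5 against E18 (adjusted p = 0.0629). The windows come from RefSeq on GRCm38.p6, plus strand, with 250 bases before and 50 after the start, at chr15:92050915-92051214 for the first isoform and chr15:92161107-92161406 for the second. Capitals mark the CCAAT box.
Cntn1 start of the 5671-base isoform: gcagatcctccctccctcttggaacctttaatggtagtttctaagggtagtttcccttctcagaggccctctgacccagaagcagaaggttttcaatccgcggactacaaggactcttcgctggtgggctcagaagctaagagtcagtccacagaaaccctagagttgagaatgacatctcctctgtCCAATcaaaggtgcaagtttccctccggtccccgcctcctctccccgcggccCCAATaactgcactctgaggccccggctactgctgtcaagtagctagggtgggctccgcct
Cntn1 start of the 5817-base isoform: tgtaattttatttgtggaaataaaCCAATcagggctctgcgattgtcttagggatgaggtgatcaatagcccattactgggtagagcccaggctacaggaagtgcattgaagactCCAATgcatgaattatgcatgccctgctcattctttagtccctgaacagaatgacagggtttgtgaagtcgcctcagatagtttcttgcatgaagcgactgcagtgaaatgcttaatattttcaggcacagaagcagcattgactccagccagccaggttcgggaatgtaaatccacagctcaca
Motifs were searched on both strands. The first was the TATA box, spelled TATAAA, the next the CCAAT box, spelled CCAAT, and the last the GC box, spelled GGGCGG. Each window held the CCAAT box at 2 places, a motif found in 37.4% of 32851 RefSeq promoter windows of this length. Neither held the TATA box, which is in 13.6% of windows, or the GC box, which is in 35.7%. The windows differed in base makeup, with 55.3% G or C and 9 CpG in the first and 45.0% and 4 CpG in the second, against medians of 52.7% and 7 CpG. A window of a further Cntn1 start, near that of ENSMUST00000000109.10, held 1 TATA box, 0 CCAAT boxes and 0 GC boxes, with 34.7% G or C. That transcript had 2.27 and 1.37 FPKM in E18 libraries, 9.09 and 8.83 FPKM in P5 libraries and 0.849 and 0 FPKM in Adult libraries, and it too was highest at P5 without passing the test against E18 (adjusted p = 0.0621). Such matches describe letters and not bound sites.

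Ank2 isoforms changed more in Adult than the gene's summed level. The isoform ENSMUST00000182064.8, listed at 14212 bases, holds the giant exon of 6198 bases (chr3:126941610-126947807, minus strand) that marks the axonal giant ankyrin-B, and encodes 3926 residues. It had 35.1 and 33.6 FPKM in E18 libraries, 40.4 and 40.6 FPKM in P5 libraries and 2.78 and 4.36 FPKM in Adult libraries. The younger libraries lay close together and the Adult ones far below. The change in Adult against P5 was -3.21 (SE 0.19, limma adjusted p = 0.000270), and relative to Ank2 it was -2.78 (SE 0.22, adjusted p = 0.00150). Its share was 2.31% and 3.53% in Adult, against 24.3% and 25.3% at P5.

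Another Ank2 isoform of 14501 bases starts far upstream and shares some but not all junctions with ENSMUST00000182078.8, whose annotated form also holds the giant exon. It had 24.1 and 21.9 FPKM in E18 libraries, 13.0 and 11.2 FPKM in P5 libraries and 22.6 and 27.0 FPKM in Adult libraries, so P5 was lowest and Adult and E18 overlapped. It was higher in Adult than at P5 by 0.98 (SE 0.15, limma adjusted p = 0.00442), not called as TPM (0.27, 0.166), with a relative change of 1.40 (SE 0.19, adjusted p = 0.00602). The 4 Ank2 isoforms of at least 12000 bases held 24.9% and 25.9% of Ank2 in Adult, against 32.1% and 32.4% at P5 and 41.7% and 41.1% at E18. Their share was thus lower at each later age with no overlap, a description with no test. The first bases of the annotated transcripts lie at 127225847 for ENSMUST00000182064.8 and 127409059 for ENSMUST00000182078.8 on chromosome 3. By start site, the group of the first held 7.55 ± 0.892% in Adult, against 26.2 ± 1.80% at P5 and a mean of 26.3% at E18. The group of the second held 30.1 ± 3.80% in Adult, against 20.8 ± 0.985% at P5 and 30.3 ± 0.341% at E18 (SD, n = 2 each), so it was lowest at P5.

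Some Ank3 transcripts with downstream start sites were higher in Adult. ENSMUST00000182992.7, of 8309 bases with an exon of 2550 bases (chr10:69986083-69988632, plus strand), had 3.39 and 2.96 FPKM in E18 libraries, 2.81 and 1.89 FPKM in P5 libraries and 9.29 and 8.23 FPKM in Adult libraries. Both Adult values were above all others, and the change against P5 was 1.56 (SE 0.20, limma adjusted p = 0.00236). Its relative change was 0.996 (SE 0.22, adjusted p = 0.0243), a call lost without P5 b (0.0863), without Adult replicate 1 (0.0744) and without either E18 library. A short isoform of 876 bases, ENSMUST00000183240.1, had 8.07 and 7.63 FPKM in Adult, and 0 to 0.390 FPKM in the younger libraries. It took 10.6% and 9.50% of Ank3 in Adult, with a relative change of 2.35 against P5 (SE 0.25, limma adjusted p = 0.00324).

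The Ank3 isoform with the longest exon, ENSMUST00000186247.6 with 7674 bases in 1 exon (chr10:69986089-69993762), the giant exon of ankyrin-G, held 16.6% and 17.0% in Adult, against 21.3% and 18.9% at P5 and 21.3% and 20.8% at E18. Its Adult shares were the lowest, and its level and share were not called. Some isoforms that overlap this exon went the other way. The 2550-base exon of ENSMUST00000182992.7 overlaps it, and that isoform had a mean share of 11.2% in Adult and 4.45% at P5. ENSMUST00000182665.7, annotated as a target of nonsense-mediated decay and with an exon of 2541 bases inside it, had 4.91% in Adult and 2.16% at P5. Its relative change was not called in Adult against P5. Against E18 its higher call was lost at a pseudocount of 0.1 FPKM (limma adjusted p = 0.0639). The share of all transcripts with this giant exon was not tested. ENSMUST00000182155.7, listed at 9258 bases and starting upstream, held 9.27% and 10.5% in Adult, against 17.4% and 17.3% at P5, and its relative call was lost at a pseudocount of 0.1 FPKM (adjusted p = 0.0690) and with any 1 library left out. By start site, its group held 20.7 ± 1.53% of Ank3 in Adult, against 37.2 ± 2.94% at P5 and 35.7 ± 0.642% at E18. The group of the 876-base isoform held 11.1 ± 1.32% in Adult, against 0.745 ± 0.607% at P5 and 0.550 ± 0.288% at E18 (SD, n = 2 each). Transcripts under 2000 bases, 12 of the 25 listed, held 43.2% and 43.4% of Ank3 in Adult and 33.3% to 38.6% in the younger libraries.

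**Figure D5:**
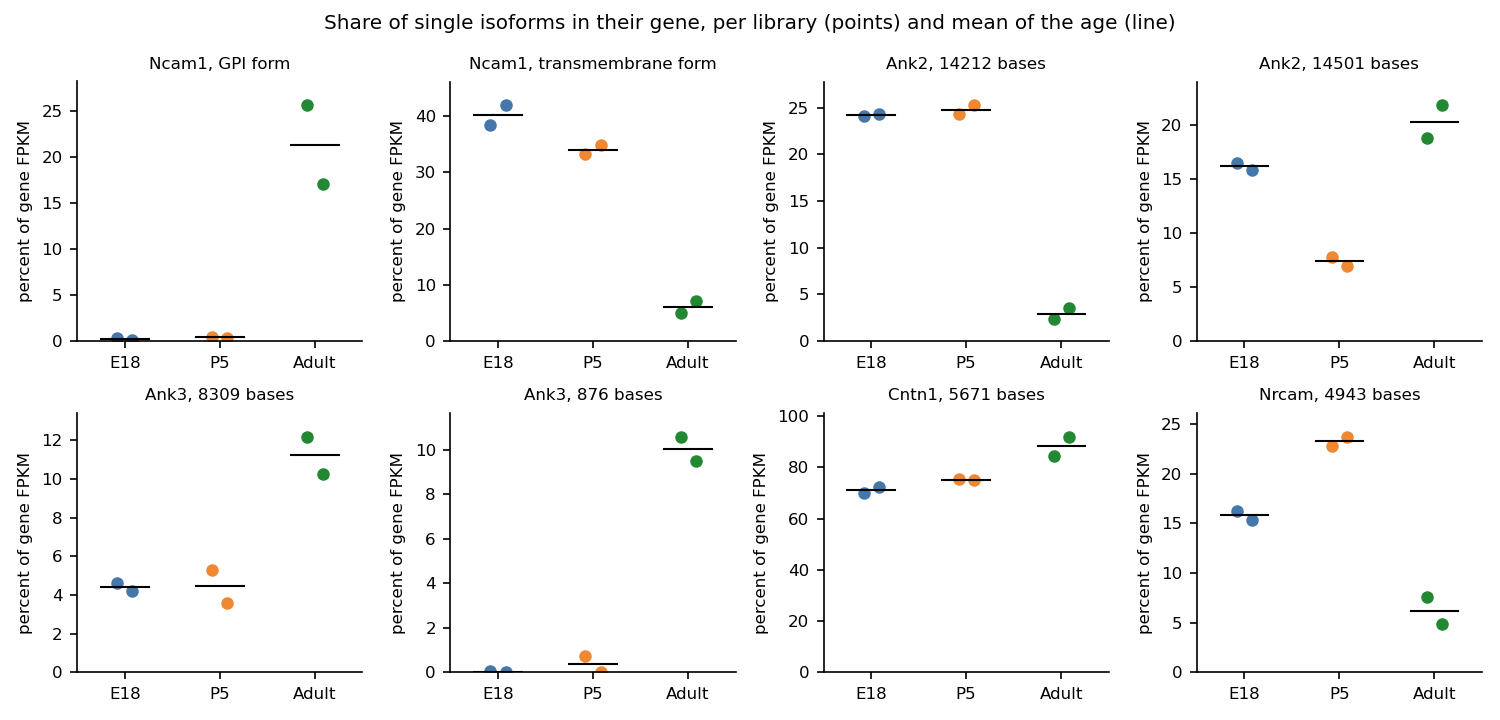
Percent of its gene's FPKM (vertical axis) held by each of 8 isoforms at E18, P5 and Adult; points are libraries and lines are age means. In Adult the Ncam1 GPI form and the Ank3 8309-base and 876-base isoforms lie above both younger ages. The Ncam1 transmembrane form ENSMUST00000193547.5, the Ank2 14212-base and the Nrcam 4943-base isoforms lie below them. The near copy of that Ncam1 form, ENSMUST00000166811.8, which kept a similar share in Adult, is not shown.

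Genes that work with these 10 were described from 3 lists. The list of axon initial segment and node partners (spectrins, sodium and potassium channels and their scaffolds) had 27 tested genes. In P5 against E18 limma called 7 higher and 0 lower (13 higher and 1 lower at an unadjusted p under 0.05), beside 5.52% and 4.95% of all genes, with a median of 0.33. The count was 0 to 4 with 1 library left out. Adult against P5 had 10 higher and 12 lower (median -0.12), beside 26.2% and 33.7% of all genes, and Adult against E18 had 12 and 11, beside 25.3% and 34.4%. As TPM these were 6 and 16, and 11 and 15.

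Sptbn4, the spectrin of initial segments and nodes, had 18.3 and 17.6 FPKM in Adult, against 4.89 and 5.11 FPKM at P5 (1.66, SE 0.12, limma adjusted p = 0.000140). Kcna2, a potassium channel of the region beside the node, had 4.33 and 4.40 FPKM in E18 libraries, 9.73 and 10.7 FPKM in P5 libraries and 29.7 and 30.9 FPKM in Adult libraries. It was higher at each later age without overlap, by 1.07 in P5 against E18 (SE 0.12, adjusted p = 0.00964) and by 1.48 in Adult against P5 (SE 0.12, 0.000166). Kcna1, its partner subunit, had 21.4 and 29.6 FPKM in Adult, against 3.09 and 3.56 FPKM at P5 (2.60, SE 0.21, 0.000168). Scn1a, a sodium channel, had 26.7 and 28.1 FPKM at P5, against 6.76 and 8.45 FPKM at E18 (1.73, SE 0.15, adjusted p = 0.00641), and Adult against P5 gave -0.04 (0.841). The calls of Kcna2 and Scn1a at P5 were lost without E18 replicate 1 or P5 a, and that of Kcna2 also without E18 replicate 2. Schip1, which binds ankyrin-G, was lower in Adult, with 24.9 and 26.5 FPKM against 137 and 142 FPKM at P5 (-2.40, SE 0.09, 2.82e-05). Sptan1, the common alpha spectrin, had 182 and 192 FPKM in Adult, against 379 and 404 FPKM at P5 (-1.06, SE 0.10, 0.000272).

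Of 26 other immunoglobulin family adhesion molecules tested, limma called 3 higher and 0 lower in P5 against E18 (6 and 3 at an unadjusted p under 0.05), beside 5.52% and 4.95% of all genes, and the count was 0 to 1 with 1 library left out. In Adult, 8 were higher and 9 lower than at P5 (median -0.14), beside 26.2% and 33.7% of all genes and so near that background. Against E18, 11 were higher and 8 lower (median 0.32), beside 25.3% and 34.4%. As TPM these became 3 and 16, and 4 and 11, and with equal protein-coding sums 12 and 5, and 13 and 4. Igsf8 had 129.7 and 166 FPKM in Adult, against 40.9 and 34.5 FPKM at P5 (1.94, SE 0.15, limma adjusted p = 0.000175), and Nectin1 had 22.5 and 24.3 FPKM in Adult, against 5.40 and 6.33 FPKM at P5 (1.83, SE 0.16, 0.000239). Opcml, another GPI-anchored adhesion molecule, had 6.67 and 6.87 FPKM in Adult, against 33.3 and 29.2 FPKM at P5 (-2.05, SE 0.14, 0.000110). Negr1, of the same small family, had 37.9 and 44.7 FPKM in Adult, against 60.3 and 64.1 FPKM at P5 (-0.58, SE 0.12, 0.00598), a call lost with equal protein-coding sums (-0.26, 0.131) and with quantile normalization (-0.27, 0.0978).

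Of 27 binding partners, sheddases and modifying enzymes tested, limma called 2 higher and 2 lower in P5 against E18, beside 5.52% and 4.95% of all genes, with 0 to 3 called when 1 library was left out. In Adult, 10 were higher and 14 lower than at P5 (median -0.50), beside 26.2% and 33.7% of all genes, and 9 and 14 against E18 (median -0.62), beside 25.3% and 34.4%. Cd24a, a small surface glycoprotein that binds L1cam, had 860 and 1041 FPKM in E18 libraries, 418 and 447 FPKM in P5 libraries and 2.49 and 2.94 FPKM in Adult libraries. It was lower at each later age without overlap, with a log2 change of -1.13 in P5 against E18 (SE 0.13, limma adjusted p = 0.0102) and of -6.87 in Adult against P5 (SE 0.13, 5.18e-06). Ncan, a proteoglycan that binds L1cam and Ncam1, had 2.55 and 3.32 FPKM in Adult, against 40.6 and 42.7 FPKM at P5 (-3.44, SE 0.14, 2.82e-05). Nrp1, the semaphorin receptor that pairs with L1cam, had 4.29 and 3.82 FPKM in Adult, against 35.9 and 42.8 FPKM at P5 (-2.99, SE 0.14, 4.48e-05), a call lost with annotated isoforms alone (-0.49, 0.233). Itgb1, an integrin chain, was highest at P5, with 64.3 and 62.5 FPKM, against 33.9 and 32.6 FPKM at E18 (0.91, SE 0.10, 0.00958), and had 12.3 and 11.6 FPKM in Adult (-2.31 against P5, SE 0.10, 3.05e-05). The calls of Cd24a and Itgb1 in P5 against E18 were lost without E18 replicate 1 (0.0787 and 0.106), E18 replicate 2 (0.0691 and 0.0755) or P5 a (0.0862 and 0.0694).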

How the data were processed

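RNA of immunopanned RGCs was sequenced as polyA-selected libraries with paired reads of 100 bases, per the labels. The authors deposited isoform FPKM. HISAT2, Cufflinks, Cuffdiff and mm10 are named per the submitters' processing notes, with no versions and no scaling between libraries given in the sources used here. The table writes 0.0001 in place of 0, and each listed isoform reaches at least 1.00 FPKM in some library. A further 9 columns of values were not used. FPKM carry no read counts, so depth is unknown and precision rests on 2 libraries per age.

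Isoform FPKM were summed per symbol. limma 3.58.1 in R 4.3.3 (lmFit, eBayes with a variance trend) was fitted to log2(FPKM + 1) of all genes or isoforms with a mean of at least 1 FPKM, with age as factor, no replicate block and all 6 libraries. This scale understates the change of low genes. A further fit used log2(isoform FPKM + 1) minus log2(gene FPKM + 1). The two-sided p-values were adjusted over the whole table (Benjamini-Hochberg) and called at an adjusted p under 0.05. Residual degrees of freedom were 3 and prior ones 3.26, 2.88 and 2.78. The fits were tested on simulated data. Coordinates, types and exons are of GENCODE M21 on GRCm38, the build of mm10, and 99.9% of isoforms listed as annotated carried an identifier of it. Antisense overlap was not separated, since strand use is not stated.

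The members and lists were chosen with earlier results of these data known. Named isoforms hold at least 10% of their gene in the mean of an age. Named outside this rule were ENSMUST00000182610.7 of Ank2, ENSMUST00000000109.10 of Cntn1 and ENSMUST00000182665.7 of Ank3. Of each list, the 3 genes with the smallest p per comparison and the 2 with the highest level could be named. Alternatives changed the pseudocount, filter, scaling, isoform set, ages fitted and variance trend, or left out a library. A text value in another unit (TPM) was rescaled here from the deposited FPKM. Replicate numbers recur at E18 and Adult, but same-numbered libraries did not deviate together.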

Additional observations from a re-analysis of the deposited data

How the results depend on the processing

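Of the 10 members, 2 were called at P5 against E18, but 1 with equal protein-coding sums, with only those 2 ages fitted or with no variance trend, and 0 to 1 with 1 library left out. In Adult against P5, 9 were called and 8 to 9 with 1 library left out. In Adult against E18, 5 were called, 9 as TPM, 8 with isoforms of at least 2000 bases and 5 to 6 with 1 library left out. Of the isoforms, 2 were called at P5 against E18, but 7 as TPM and 0 with any library left out. The counts with 1 library left out were 35 to 43 in Adult against P5 and 27 to 41 in Adult against E18. Relative to their gene, 31 isoforms were called in Adult against P5, but 20 at a pseudocount of 0.1 FPKM and 18 to 28 with 1 library left out. In Adult against E18 these were 31, 17 and 7 to 30. The cause of these differences was not tested, apart from the smaller number of libraries in the fits that left one out.

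Signs changed as follows. At P5 against E18, Nrcam was 0.056 as TPM and -0.24 to 0.088 with 1 library left out. In Adult against P5, Nfasc was -0.41 as TPM, -0.090 with protein-coding isoforms and -0.090 with isoforms of at least 2000 bases, and Ank3 was -0.18 as TPM. In Adult against E18, Nfasc was 0.23 with equal protein-coding sums, 0.055 with quantile normalization, 0.12 with annotated isoforms and -0.34 to 0.087 with 1 library left out. Alcam was -0.36 as TPM and -0.017 to 0.50 with 1 library left out, Ank2 was 0.15 with equal protein-coding sums and 0.21 with quantile normalization, and Ank3 was -0.49 as TPM, called lower (adjusted p = 0.00363), and -0.024 with isoforms of at least 2000 bases, but was called higher with equal protein-coding sums (0.49, 0.00754) and quantile normalization (0.46, 0.00548). Cadm1, an adhesion molecule of the second list that was lower in Adult, was 0.031 against P5 and 0.0096 against E18 with quantile normalization. At a pseudocount of 0.1 FPKM, the relative changes of Chl1 isoforms were -1.09 (678 bases) and -0.35 (8309 bases) in Adult against P5 and -1.52 (8309 bases) in Adult against E18.

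Of the lists, initial segment and node partners had 7 calls at P5 against E18, but 4 with only those ages and 0 to 4 with 1 library left out. The other adhesion molecules had 3, but 6 as TPM, 0 with only those ages and 0 to 1 with 1 library left out, and the binding partners had 4, and 0 to 3 with 1 library left out. With a replicate block, Adult against E18 kept 5 members called. The pairing check gave r = 0.0183 between deviations of same-numbered E18 and Adult libraries over 14390 genes, and P5 columns carry no number. With 2 libraries per age, this check cannot tell whether same-numbered libraries share a preparation. In fits that left a library out, the lone library of an age was assumed to vary like the others. The alternatives with protein-coding isoforms alone and with isoforms of at least 2000 bases were chosen after seeing the data. Depth is unknown, so differences of low genes may lie within counting error.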
